A study of Mus musculus with 3 samples.

Results

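The genes of glycolysis and of the hypoxia response were read in naive CD4+ T cells cultured with medium, with IL-21, or with IL-6 + TGFb1. The list holds 42 genes in 6 roles: glucose and lactate transporters, enzymes of upper and of lower glycolysis, regulators of glycolytic flux, the HIF factors with the enzymes that control them, and genes induced by hypoxia. They were chosen by function from their names, with earlier results of these data known. A gene was measured if the platform annotation gave a probe set that symbol alone, and where a gene had several such probe sets the brightest on average was taken. This gave 39 of the 42 genes, out of 19935 genes measured in all. Ero1l was found under its current symbol, Ero1a. Gpi1, Eno1 and Gapdh had no probe set with their symbol alone and were not analysed here. The annotation names Gapdh only on probe sets that also list other genes.

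The cells came from wild-type C57BL/6 mice 8 weeks old, and total RNA of each culture was measured on 1 array. The control culture received medium and vehicle, another culture received IL-21, a cytokine made by helper T cells, and the third received IL-6 + TGFb1, a combination widely used to obtain Th17 cells. The labels give neither the time in culture, the doses, the oxygen level nor the stimulation of the T cell receptor, and there was no array with IL-6 alone or TGFb1 alone. The difference between IL-21 and IL-6 + TGFb1 can therefore not be told apart from the presence of TGFb1.

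Glycolysis splits glucose into pyruvate and yields ATP without oxygen, and T cells raise it when they are activated. Hypoxia-inducible factors (HIFs) are transcription factors whose alpha subunits are hydroxylated by EGLN enzymes when oxygen is present and are then marked for degradation by VHL. HIF-1 drives many glycolytic genes, and in helper T cells it is also known to be active at normal oxygen and to take part in Th17 differentiation.

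With 1 array per culture there was no replicate, so no difference below has an error or a test, and each compares 2 arrays. Values are probe set intensities on a linear scale, with array medians between 182 and 191. Differences are log2(intensity + 1) of one array minus another, and a gene was counted as higher or lower from 1.5-fold, a log2 difference of 0.585, with 2-fold given beside it. A gene was compared if its highest intensity was at least 187, the median of all values, which kept 11003 genes and all 39 measured members. As a scale for probe set error within the same arrays, the IL-21 minus medium differences of a pair of bright probe sets for the same gene were compared in 455 genes: they lay 0.07 apart at the median and 0.41 at the 95th percentile. With IL-21, 7 of the 39 members (17.9%) differed from medium by more than this 95th percentile, against 6.78% of all compared genes. For IL-6 + TGFb1 minus medium the percentile was 0.37, and 8 members (20.5%) lay beyond it, against 9.28%. Between the treated cultures it was 0.34, and 10 members (25.6%) lay beyond it, against 4.35%. The other members' differences are within the range that probe sets of the same gene can show. Whether probe sets of the same gene share sequence was not checked, so their agreement, here and below, need not be independent. In bulk RNA, more cells of a kind and more RNA per cell cannot be told apart. Of the 8 CD4 T cell markers with a probe set, all 8, among them Cd3e and Cd4, were above the array median on each array. Their summed intensity was 35542 in medium, 38858 under IL-21 and 38713 under IL-6 + TGFb1. Of 9 myeloid markers measured, 1, Cd68, passed the brightness filter, and of 5 B cell markers 1 did, Cd79b. The NK cell list had no gene past the filter, but its 5 genes summed to 387 in medium, 420 under IL-21 and 495 under IL-6 + TGFb1. Within it Klrd1 read 66.0, 98.1 and 173 in that order, and the 4 other genes, Ncr1, Klrb1c, Klra8 and Fcgr3, lay between -0.03 and 0.03 in both differences from medium. Its part in the members' values was not tested. Alas2, the 1 erythroid gene measured, was below the filter. Of the 2 CD8 markers, Cd8a was below the filter too, at 163 in medium, 145 under IL-21 and 155 under IL-6 + TGFb1. Cd8b1 was above it, at 810 in medium, 731 under IL-21 and 616 under IL-6 + TGFb1. Of 6 stromal and epithelial markers 4 passed, and their list summed to 1719 in medium, 1500 under IL-21 and 1600 under IL-6 + TGFb1. The part of other cells in the differences below was not tested.

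With IL-21, most genes of the list were somewhat higher than with medium, with a median difference of 0.32 over the 20 HIF and hypoxia-induced genes and of 0.13 over the 19 measured genes of transport and glycolysis. The largest differences were those of Epas1, which encodes HIF-2 alpha (2.12-fold), the mitophagy receptor gene Bnip3 (1.95-fold), the aldolase isoform gene Aldoc (1.81-fold) and Slc16a3, which encodes the lactate exporter MCT4 (1.77-fold). These 4 of 39 genes, or 10.3%, were at least 1.5-fold higher, where 2.04% of all compared genes were. None was 1.5-fold lower, where 0.5% of all compared genes were. Epas1 alone passed 2-fold, which 0.482% of all compared genes did. The median difference over the 39 genes was 0.24, against 0.04 over all compared genes. Of the 39, 35 lay above 0, 3 below (Hk1, Slc16a1 and Vegfa) and 1, Pgk1, exactly at 0, while of all compared genes 59.8% lay above, 28.6% below and 11.6% at 0.

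With IL-6 + TGFb1 the median of the list was closer to medium. The difference was at least 1.5-fold in 1 of 39 genes, or 2.56%, where 2.61% of all compared genes were that much higher. That gene was Egln3, an oxygen-sensing hydroxylase, at 1.94-fold. The share is near the background and says nothing particular of the list. No member was 1.5-fold lower, where 1.0% of all compared genes were, and none was 2-fold higher, where 0.673% were. The median difference was 0.09, against 0.02 over all compared genes, with 24 genes above 0, 14 below and Pgk1 at 0. Of all compared genes 56.3% lay above, 36.6% below and 7.13% at 0. The comparisons with medium share the medium array, so they are not independent of each other.

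Set directly against IL-6 + TGFb1, the IL-21 culture had 30 of 39 members above 0 and 7 below, with a median difference of 0.15 against 0.00 over all compared genes, of which 44.7% lay above, 42.3% below and 13.0% at 0. Epas1 (2.50-fold) and the glucose transporter gene Slc2a3 (1.51-fold) were at least 1.5-fold higher with IL-21, 5.13% of the members against 0.927% of all compared genes. Epas1 was also past 2-fold, as 0.273% of all compared genes were. No member was 1.5-fold lower, as 0.527% of all compared genes were. Seen over the 3 arrays, IL-21 gave the highest value for 27 of 39 members and the lowest for none. Among all compared genes IL-21 was highest for 33.0% and lowest for 18.1%. The medium array was lowest for 24 members and highest for 3, against 47.9% and 21.9% of all compared genes. IL-6 + TGFb1 was highest for 7 members and lowest for 14, against 29.3% and 22.2%.

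**Figure D1:**
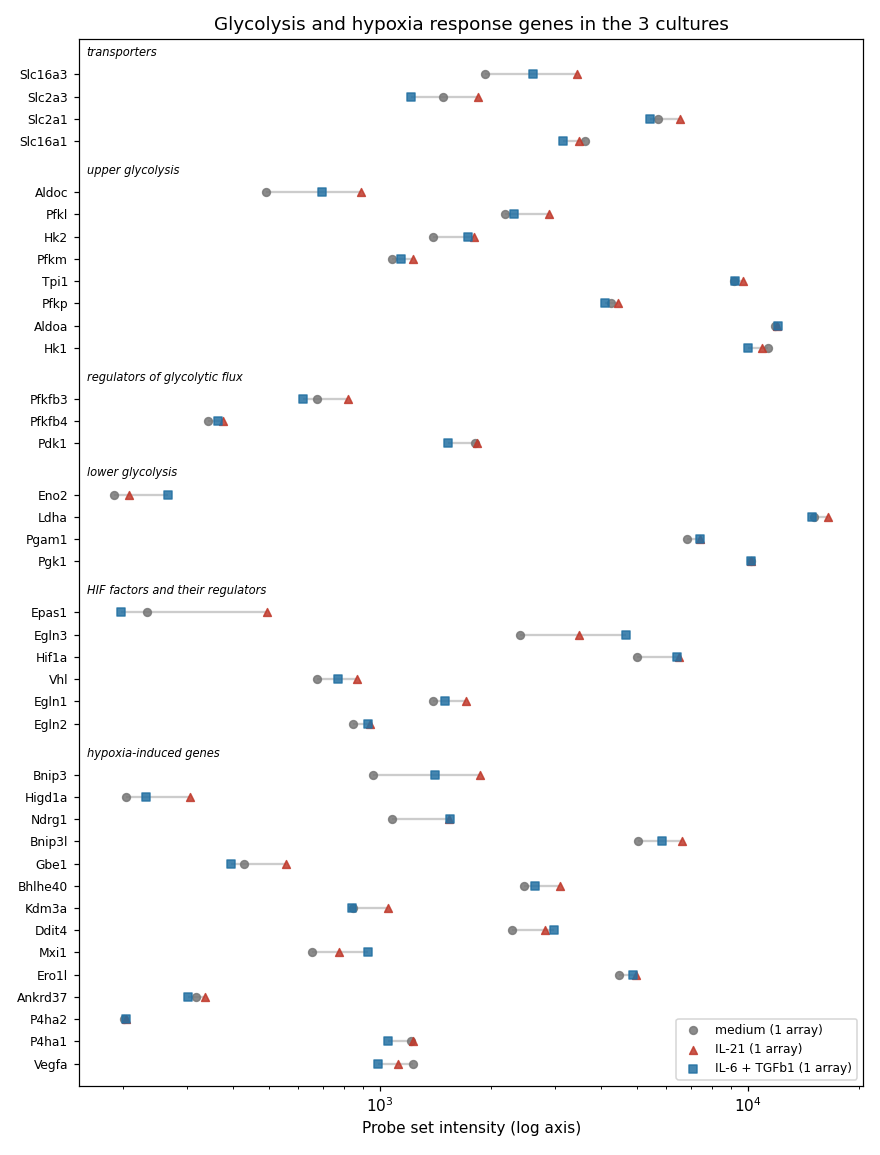
Probe set intensity (log axis) of each of the 39 measured genes on the medium, IL-21 and IL-6 + TGFb1 arrays, grouped by role and joined by a line from lowest to highest; each point is 1 array. IL-21 is the rightmost point for 27 of 39 genes, and Epas1, Bnip3, Aldoc and Slc16a3 stand far from medium. Intensities of different probe sets are not comparable with each other.

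The transporters move glucose in and lactate out. Slc16a3 had an intensity of 1933 in medium, 3431 under IL-21 and 2613 under IL-6 + TGFb1, so both treated cultures lay above medium and IL-21 was highest. Its log2 differences from medium were 0.83 and 0.43, at ranks 93 and 543 of 11003 from the highest. Slc2a3, which encodes the high-affinity glucose transporter GLUT3, was at 1481 in medium, 1844 under IL-21 and 1218 under IL-6 + TGFb1. The treated cultures thus lay on opposite sides of medium, at 0.32 and -0.28, and differed from each other by 0.60. Slc2a1, the gene of the glucose transporter GLUT1, had the same order over a narrower range, with 5711 for medium, 6550 for IL-21 and 5421 for IL-6 + TGFb1. Slc16a1, which encodes the lactate transporter MCT1, was highest with medium, at 3607, and read 3486 under IL-21 and 3148 under IL-6 + TGFb1. All 4 transporter genes were higher with IL-21 than with IL-6 + TGFb1, by a median of 0.33. Of all compared genes 44.7% were, with a median of 0.00.

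In upper glycolysis, from glucose to the triose phosphates, 8 of 9 genes were measured. With IL-21, where 2.04% of all compared genes were 1.5-fold higher, 1 of the 8 was. This was Aldoc, the aldolase isoform best known from brain, with 492 for medium, 888 for IL-21 and 697 for IL-6 + TGFb1. Its differences from medium were 0.85 and 0.50. The main aldolase gene of most tissues, Aldoa, read 11864, 12011 and 12046 in the same order, 0.02 above medium in each treated culture. Hk2, the inducible hexokinase that traps glucose in the cell, read 1395 in medium, 1803 under IL-21 and 1740 under IL-6 + TGFb1, or 0.37 and 0.32 above medium. Pfkl, the liver-type phosphofructokinase subunit, was at 2183, 2881 and 2321, 0.40 above medium under IL-21 and 0.09 under IL-6 + TGFb1. The other phosphofructokinase subunits were nearer to medium, with differences of 0.19 and 0.09 for Pfkm and 0.06 and -0.06 for Pfkp. Tpi1, the isomerase of the triose phosphates, was at 0.08 and 0.01. Hk1, the constitutive hexokinase, was at -0.05 and -0.18 by its brighter probe set, and its other probe set gave 0.10 and 0.15. The sign for Hk1 therefore depended on the probe set.

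The next 3 genes regulate the flux through the pathway. Pfkfb3, which makes fructose 2,6-bisphosphate, the activator of phosphofructokinase, read 674 in medium, 819 under IL-21 and 617 under IL-6 + TGFb1, again with the treated cultures on opposite sides of medium (0.28 and -0.13). Pfkfb4, of the same enzyme family, differed by 0.13 and 0.08. Pdk1, a kinase that keeps pyruvate out of the mitochondrial citric acid cycle by inhibiting pyruvate dehydrogenase, had 1817 in medium, 1836 under IL-21 and 1529 under IL-6 + TGFb1. IL-21 was thus level with medium for Pdk1 (0.02) and the other treated culture lower (-0.25).

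In lower glycolysis, from triose phosphate to lactate, 4 of 6 genes were measured, none past 1.5-fold in any of the 3 comparisons. Of all compared genes 2.04% were that much higher and 0.5% lower with IL-21, and 2.61% and 1.0% with IL-6 + TGFb1. Between the treated cultures 0.927% and 0.527% were. At such shares, none of 4 says nothing particular of this role. Ldha, which converts pyruvate to lactate, had 15166 in medium, 16496 under IL-21 and 14967 under IL-6 + TGFb1. Pgam1, a phosphoglycerate mutase, was 0.12 above medium in both treated cultures, and its 3 probe sets lay between 0.12 and 0.135 with IL-21. Eno2, the neuronal enolase, was highest with IL-6 + TGFb1, at 265 against 190 with medium and 207 with IL-21, and was dim on all 3 arrays. Pgk1, phosphoglycerate kinase, had the same value of 10186 on all 3 arrays, and each of its other probe sets was equal on all 3 as well. Exact ties of this kind occurred in 2908 of 28815 probe sets (10.1%). How they arose was not tested, so the 0 of Pgk1 was not read as a measured absence of change.

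The 6 HIF factors and regulators were all above medium with IL-21, with a median difference of 0.37. Of all compared genes 59.8% were above medium, with a median of 0.04. Epas1 read 233 in medium, 494 under IL-21 and 198 under IL-6 + TGFb1. Only the IL-21 array stood high, and the medium and IL-6 + TGFb1 values lay just above the brightness filter of 187. Its difference from medium was 1.08 with IL-21, rank 40 of 11003, and -0.24 with IL-6 + TGFb1. Between the treated cultures it was 1.32, rank 15. Hif1a, the gene of HIF-1 alpha, read 5003 with medium and was alike in the treated cultures, at 6513 under IL-21 and 6438 under IL-6 + TGFb1. These are 0.38 and 0.36 above medium, short of 1.5-fold.

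The HIF hydroxylase genes did not follow the order of Epas1. Egln3 read 2397 in medium, 3486 under IL-21 and 4655 under IL-6 + TGFb1, the highest with the latter. Its differences from medium were 0.54 and 0.96, the latter at rank 88. Egln1, the main oxygen-sensing hydroxylase of the family, read 1398, 1714 and 1502 in the order medium, IL-21, IL-6 + TGFb1, and its highest value was with IL-21. Egln2 differed from medium by 0.15 and 0.14. Vhl, the recognition subunit of the ubiquitin ligase for hydroxylated HIF, read 676 in medium, 865 under IL-21 and 769 under IL-6 + TGFb1, or 0.36 and 0.18 above medium.

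**Figure D2:**
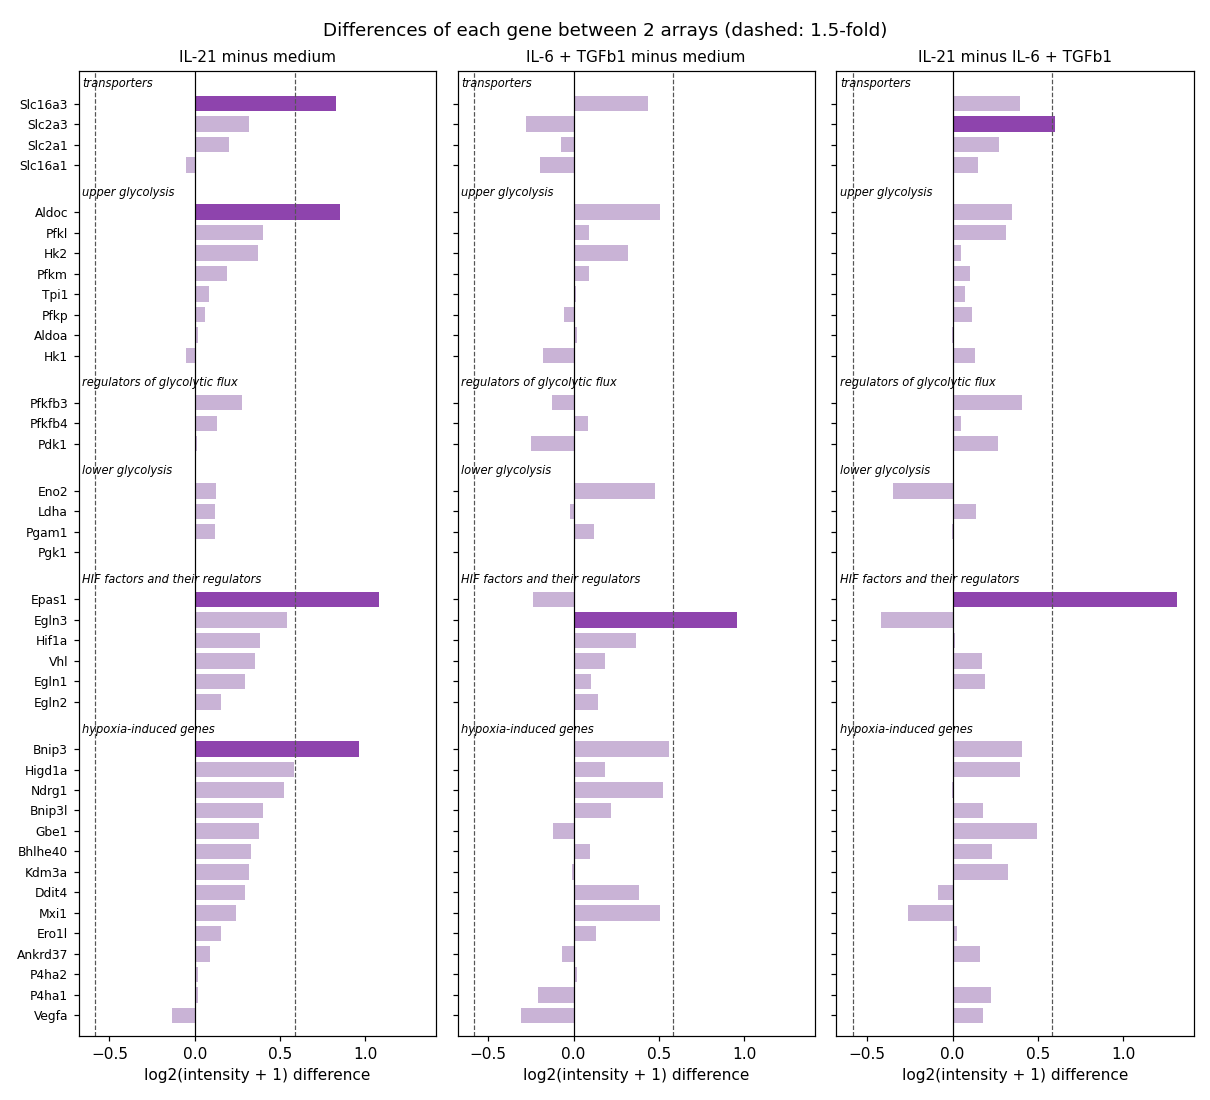
Difference of log2(intensity + 1) for each of the 39 genes in the 3 comparisons, grouped by role; bars are 1 array minus another, dashed lines mark 1.5-fold and dark bars reach it. With IL-21 minus medium 35 bars point right and 4 are dark; with IL-6 + TGFb1 minus medium the only dark bar is Egln3, and Epas1 (1.32) has the longest bar between the treated cultures.

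Of the 14 hypoxia-induced genes, 13 were above medium under IL-21 and 9 under IL-6 + TGFb1, with medians of 0.31 and 0.11. Of all compared genes 59.8% and 56.3% were above medium, with medians of 0.04 and 0.02. The count under IL-6 + TGFb1 was thus near the background. The mitophagy receptor Bnip3 led the 14: its intensity was 957 in medium, 1867 under IL-21 and 1410 under IL-6 + TGFb1. The differences from medium were 0.96, rank 63 of 11003, and 0.56, just short of 1.5-fold. A second probe set gave 626, 1224 and 917, with differences of 0.97 and 0.55, so the probe sets were nearly equal. Its relative Bnip3l, also a mitophagy receptor, read 5028, 6642 and 5858 in the same order, at 0.40 and 0.22, and its other probe set gave 0.47 and 0.28. For both receptor genes medium was lowest, IL-21 highest and IL-6 + TGFb1 between them.

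Higd1a, a small mitochondrial protein of the respiratory chain, read 204 in medium, 305 under IL-21 and 231 under IL-6 + TGFb1. The difference with IL-21, 0.579, was just below the 1.5-fold line of 0.585, but a second, dimmer probe set with intensities of 76.2 to 78.9 gave 0.05 in each treated culture. The value for Higd1a therefore rests on 1 of its 2 probe sets. Ndrg1, a stress-induced differentiation gene, was alike in the treated cultures, with 1077 for medium, 1545 for IL-21 and 1551 for IL-6 + TGFb1 (0.52 and 0.53). Ddit4, an inhibitor of mTORC1, had the same form, with 2285, 2803 and 2980. Mxi1, a MYC antagonist, was highest with IL-6 + TGFb1, at 929 against 774 with IL-21 and 655 with medium.

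Another set of hypoxia-induced genes lay further above medium with IL-21 than in the other treated culture. Gbe1, the branching enzyme of glycogen synthesis, read 428 in medium, 555 under IL-21 and 394 under IL-6 + TGFb1, a difference of 0.49 between the treated cultures. Kdm3a, a histone demethylase, read 846, 1055 and 841 in that order, and its medium and IL-6 + TGFb1 values differed by -0.01. Bhlhe40, a transcriptional repressor with a part in cytokine production by T cells, read 2466, 3094 and 2633, so that IL-6 + TGFb1 lay nearer to medium (0.09) than IL-21 did (0.33). Ankrd37 differed from medium by 0.09 and -0.07. None of these 4 genes reached 1.5-fold. With IL-21, 2.04% of all compared genes were that much higher than with medium.

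The remaining hypoxia-induced genes stayed near medium with IL-21. Vegfa, the gene of the angiogenic growth factor VEGF-A, was highest with medium, at 1227, then 1120 under IL-21 and 989 under IL-6 + TGFb1, and its differences of -0.13 and -0.31 were the lowest of the list in both comparisons with medium. P4ha1, a collagen prolyl hydroxylase, had 1217, 1231 and 1051 in the order medium, IL-21, IL-6 + TGFb1, at 0.02 and -0.21. P4ha2, of the same enzyme family, was dim at 202 to 205 and at 0.02 in both. Ero1l, the endoplasmic reticulum oxidase that serves disulfide formation, differed by 0.16 and 0.13.

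**Figure D3:**
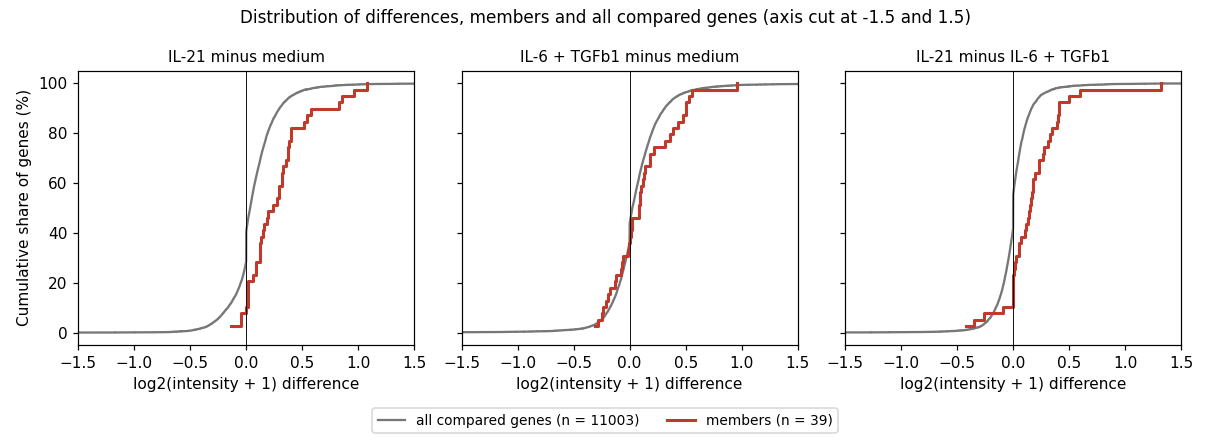
Cumulative share (%) of the 39 members and of all 11003 compared genes against their log2(intensity + 1) difference, in the 3 comparisons; each line is a distribution over genes of 1 array minus another. With IL-21 minus medium the members' line lies to the right of all genes (medians 0.24 and 0.04), with IL-6 + TGFb1 minus medium the lines lie closer (0.09 and 0.02), and between the treated cultures the members lie to the right (0.15 and 0.00).

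HIF binds a short core, ACGTG or GCGTG, within hypoxia response elements. Because the members with the largest differences moved the same way with IL-21, their promoters were searched for these letters on both strands, in the RefSeq window from 250 bases before to 50 bases after the annotated start (GRCm38.p6, the first entry listed for a gene). Of the 42 genes, 37 matched an entry, and Slc2a3, Bnip3l, Epas1, Ndrg1 and Bhlhe40 did not. The promoters of the 3 members with an entry that were highest with IL-21, and of Vegfa, the lowest, are printed as examples. Because they were picked by that difference, they cannot show whether the letters go with it. They are written 5′ to 3′ on the gene's strand, from 250 bases before to 30 bases after the start, with matches to either core in capitals. A match on the other strand reads CACGT or CACGC here. Their positions are chr7:138909477-138909756 on the minus strand, chr11:78322823-78323102 and chr11:120948817-120949096 on the plus strand, and chr17:46032348-46032627 on the minus strand.

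Bnip3: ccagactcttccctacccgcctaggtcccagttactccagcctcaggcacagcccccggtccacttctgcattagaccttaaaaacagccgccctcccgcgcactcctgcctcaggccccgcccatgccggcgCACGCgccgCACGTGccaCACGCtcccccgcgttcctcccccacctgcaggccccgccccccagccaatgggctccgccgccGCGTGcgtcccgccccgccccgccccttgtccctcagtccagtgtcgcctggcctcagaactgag
Aldoc: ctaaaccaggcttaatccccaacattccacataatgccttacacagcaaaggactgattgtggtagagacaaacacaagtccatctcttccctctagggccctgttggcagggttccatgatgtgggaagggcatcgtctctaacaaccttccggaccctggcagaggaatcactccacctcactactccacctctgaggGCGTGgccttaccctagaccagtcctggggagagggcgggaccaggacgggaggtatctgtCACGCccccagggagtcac
Slc16a3: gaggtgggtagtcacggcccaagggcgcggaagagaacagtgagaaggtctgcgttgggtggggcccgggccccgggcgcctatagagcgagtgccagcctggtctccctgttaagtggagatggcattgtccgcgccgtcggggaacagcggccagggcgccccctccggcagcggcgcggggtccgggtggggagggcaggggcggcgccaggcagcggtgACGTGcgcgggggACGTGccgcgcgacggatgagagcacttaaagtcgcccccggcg
Vegfa: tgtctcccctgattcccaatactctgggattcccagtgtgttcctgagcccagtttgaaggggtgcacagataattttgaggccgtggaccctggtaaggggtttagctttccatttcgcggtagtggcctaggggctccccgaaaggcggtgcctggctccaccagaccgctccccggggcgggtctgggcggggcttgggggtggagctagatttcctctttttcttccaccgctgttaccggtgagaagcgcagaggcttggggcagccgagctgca

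Bnip3 held 2 ACGTG and 3 GCGTG matches, and the 2 ACGTG matches were the same CACGTG read on each strand. CACGTG is also the E-box bound by MYC and by BHLHE40. Aldoc showed 2 GCGTG matches, and 1 ACGTG match that starts 28 bases after the start and runs past the printed end. Slc16a3 held 2 ACGTG matches 27 and 14 bases before the start. The Vegfa window held no match, which says only that these letters are not in this stretch.

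ACGTG was present in 22 of 37 member promoters (59.5%), in 26.5% of the promoters of 8899 compared genes and in 19.7% of all 27025 promoters listed. GCGTG was present in 21 of 37 (56.8%), against 52.6% of those of compared genes and 32.5% of all. At least 1 of them was in 28 of 37 (75.7%), against 64.1% of those of compared genes and 43.8% of all. CACGTG, which is contained in these counts as ACGTG, was in 16.2%, against 10.7% and 7.24%. The members were chosen by function and include genes known to be induced by hypoxia. A larger share with the core can therefore come from the choice of genes and says nothing of these cultures. Whether HIF took part in the differences was not tested. Among the measured members with an entry, the 26 with a match had a median difference with IL-21 of 0.19, from -0.05 to 0.96. The 8 without had 0.11, from -0.13 to 0.37. With IL-6 + TGFb1 the medians were 0.09 with a match and 0.02 without, so a higher median with a match was not particular to IL-21. Between the treated cultures they were 0.14 and 0.1. With IL-21 the ranges overlap between -0.05 and 0.37. Gbe1, Vhl and Mxi1 had no match in the window although they lay 0.24 or more above medium. Ldha, at 0.12, held the most matches, 7, while P4ha2, at 0.02, held 4 and Slc16a1, at -0.05, held 5.

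**Figure D4:**
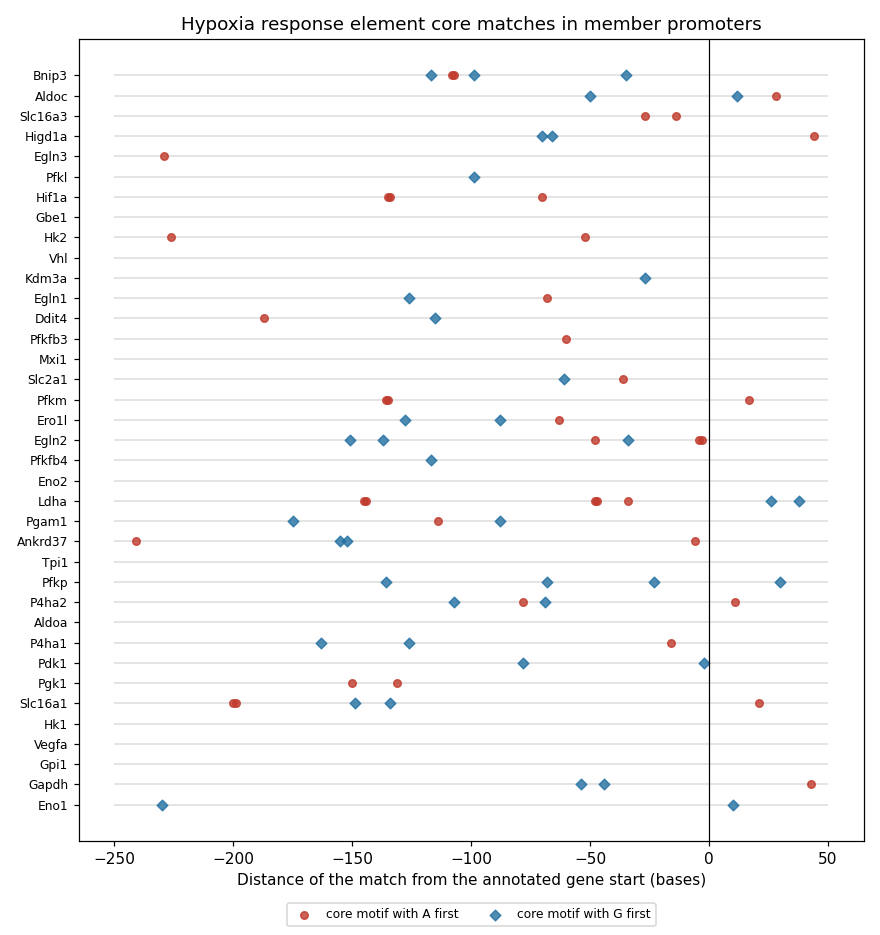
Positions of matches to the HIF core letters, with A or with G first, in the promoters of the 37 members with an entry, as distance in bases from the annotated start (vertical line), ordered by the IL-21 minus medium difference with Gpi1, Gapdh and Eno1, which were not measured, at the bottom. Bnip3, Aldoc and Slc16a3 at the top hold matches, and so do Ldha (7) and Slc16a1 (5) further down. Gbe1, Vhl and Vegfa hold none.

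Further genes of these pathways, outside the 42, were also read. Of 38 further hypoxia genes, 27 were compared. With IL-21, 21 of them lay above 0 and 2 were at least 1.5-fold higher, with a median of 0.18, where of all compared genes 59.8% lay above 0 and 2.04% were that much higher, with a median of 0.04. With IL-6 + TGFb1, 15 lay above 0, 1 was 1.5-fold higher, 2 were 1.5-fold lower, and the median was 0.04. Over all compared genes these were 56.3%, 2.61%, 1.0% and 0.02, so that the share above 0 was near the background. Ak4, a mitochondrial adenylate kinase, read 1683 in medium, 2567 under IL-21 and 1374 under IL-6 + TGFb1, the order seen for Epas1, Gbe1 and Slc2a3. Ccng2, a cyclin of growth arrest, was 0.68 above medium under IL-21 and 0.56 under IL-6 + TGFb1. Plin2, a lipid droplet coat protein, was highest with IL-6 + TGFb1 (0.37 and 0.65). The gene of the secreted glycoprotein stanniocalcin 2, Stc2, read 654 in medium, 620 under IL-21 and 363 under IL-6 + TGFb1.

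Of 24 further glycolysis genes, 12 were compared, with medians of 0.07 with IL-21 and 0.03 with IL-6 + TGFb1, against 0.04 and 0.02 over all compared genes. In each of these comparisons 1 of the 12 was 1.5-fold higher and 1 was 1.5-fold lower. The shares over all compared genes were 2.04% higher and 0.5% lower with IL-21, and 2.61% and 1.0% with IL-6 + TGFb1. Eno3, the enolase isoform best known from muscle, was lower than medium in both treated cultures, with 3518 for medium, 2127 for IL-21 and 1374 for IL-6 + TGFb1. Its differences of -0.73 and -1.36 were opposite in sign to those of Eno2. Ldhb, the lactate dehydrogenase subunit that favours the formation of pyruvate, was higher in both, with 401, 691 and 664 in that order (0.79 and 0.73), while Ldha differed from medium by 0.12 and -0.02. The phosphoglucomutase genes Pgm1 and Pgm2 differed by 0.26 and 0.15 with IL-21, and by -0.10 and 0.29 with IL-6 + TGFb1.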

How the data were processed

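RNA of 3 cultures, 1 per group, was biotin-labelled with an Affymetrix whole-transcript kit, per the labels' protocols. The deposited values are linear intensities of 28815 probe sets, and how the authors summarized and normalized them was not given in the sources used. The submitters' processing notes name genome build mm8, and no coordinate of it was used. Intensities ran from 25.5 to 20652. The number of arrays limits the precision.

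The platform annotation gave 21780 probe sets 1 symbol, 1605 several and 5430 none listed. Only the first were used. Values were taken as log2(intensity + 1), which slightly understates differences of dim genes, and no further normalization was applied. With 1 array per group there was no test, and a fixed fold stood in for it. The members and the further gene lists are described beside all compared genes. The members, the lists and the alternatives were chosen with earlier results of these data known. Named genes were all members and up to 4 genes of each further list with the largest differences. The alternatives were quantile normalization, median centring, a pseudocount of 16, low values raised to the 20th percentile (69.0), no brightness filter, a stricter one (785), the mean over probe sets and a 2-fold rule. The calculation was tested on simulated data. Python 3.11.15, numpy 2.4.6 and pandas 2.3.3 were used.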

Additional observations from a re-analysis of the deposited data

How the results depend on the processing

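The medians over members kept their sign in all 3 comparisons under the 7 alternatives that recompute them and were 0.18 to 0.31 for IL-21 minus medium, 0.05 to 0.11 for IL-6 + TGFb1 minus medium and 0.13 to 0.19 between the treated cultures. Centring each array on its median raised the count of members 1.5-fold higher with IL-21 from 4 to 7, adding Egln3 (0.61), Ndrg1 (0.59) and Higd1a (0.65), and it moved the median of all compared genes from 0.04 to 0.10. With the stricter brightness filter, which drops Epas1, the count between the treated cultures fell to 1. The shares of all compared genes past 1.5-fold were not computed under centring or the stricter filter. These counts therefore have no background beside them. Under the 2-fold rule the counts of higher members were 1 with IL-21, 0 with IL-6 + TGFb1 and 1 between the treated cultures. Of all compared genes 0.482%, 0.673% and 0.273% were that much higher, in the same order. Of 798 recomputed member differences, 12 changed sign, all from values of at most 0.05 and to values of at most 0.07 in size, and no difference past 1.5-fold reversed. Leaving out Ero1a, an alternative added after the data were seen, changed no count, and the median with IL-21 was then 0.26. No paired analysis was possible because each group had 1 array. Nor could any array be left out, and the spread between cultures stays unknown.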

Other observations

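Further metabolic and stress lists were read beside all compared genes, whose median was 0.04 with IL-21 and 0.02 with IL-6 + TGFb1. None of the 14 genes of the list of MYC and mTORC1 inputs was 1.5-fold from medium in either treated culture. Of all compared genes 2.04% were that much higher and 0.5% lower with IL-21, and 2.61% and 1.0% with IL-6 + TGFb1. The list's median was 0.00 with IL-21 and 0.00 with IL-6 + TGFb1. Myc itself, a transcription factor that raises glycolytic genes in activated T cells, read 7846 in medium, 7227 under IL-21 and 6396 under IL-6 + TGFb1. Its partner gene Max had differences of -0.15 and -0.51, Tsc1 0.23 and 0.18, and Mtor 0.17 and 0.23. In the pentose phosphate pathway, which branches from glycolysis, 7 genes were compared, with medians of 0.03 and -0.04. H6pd was at 0.23 and 0.27, Rpia at -0.10 and -0.20, Pgd at -0.01 and -0.15, and Pgls at 0.08 in both.

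The list of ATF4 stress genes shares Ddit4 and Vegfa with the hypoxia genes. Of its 11 genes, 2 lay above 0, 6 below and 3 at 0 under IL-21 (median -0.02). Under IL-6 + TGFb1, 2 lay above 0, 8 below and 1 at 0 (median -0.08). Of all compared genes 59.8% and 56.3% lay above 0, 28.6% and 36.6% below, and 11.6% and 7.13% at 0. Ddit4 was the highest of the 11 in both (0.29 and 0.38), while the stress gene Sesn2 was at -0.09 and -0.27 and the serine synthesis gene Phgdh at -0.20 and -0.22.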
